A study of Mus musculus with 81 samples.

Results

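The libraries described here are BMDM set 2 of the H3.3 study, 6 of its 81 RNA-seq libraries. They were chosen by their names, which mark them as one set of bone marrow-derived macrophages (BMDMs) with 3 WT and 3 H3.3 cKO libraries. WT mice carried floxed copies of both H3.3 genes (H3f3a fl/fl, H3f3b fl/fl) and no cre. cKO mice carried the same floxed genes with LysM cre/cre, which is meant to delete the H3.3 genes in myeloid cells. The study's notes say that deletion of H3f3b fluctuated among cKO samples, from partial to complete. All mice were C57BL/6, and by the study's methods they were male or female and 8 to 10 weeks old. Marrow cells of either genotype were cultured with L929-conditioned medium for 6 to 8 days and were given no other treatment. In LysM cre the recombinase sits in the Lyz2 gene on both chromosomes, so that loss of Lyz2 goes with the cKO genotype in every cKO library. There is no group with LysM cre and intact H3.3 genes among the 6 libraries. The titles call the libraries of a genotype biological replicates. The p-values rest on a spread between replicates that was estimated over 27 BMDM libraries in 9 groups, not over these 6 alone. The other groups are WT and cKO of 2 other BMDM sets, and cKO with Sting, Mavs or Irf7 KO. The question was which genes differ between H3.3 cKO and WT macrophages of this set, and whether that difference is like the one in the other BMDM sets.

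H3.3 is the form of histone H3 that is made throughout the cell cycle and placed into chromatin outside DNA replication, at active genes, enhancers and repeats. The replication-coupled H3 proteins, in contrast, are made mainly in S phase. Macrophages grown from marrow divide under M-CSF, then leave the cell cycle and express phagocytic receptors, lysosomal enzymes and lipid transporters. Type I interferons act through IFNAR1 and IFNAR2, JAK1 and TYK2 and transcription factors such as STAT2 and IRF9, which raise a large group of antiviral genes.

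The libraries were deep and even, with 33400656 to 45581528 counts on genes. Values are CPM, counts per 1000000 counts on genes, scaled between libraries by TMM, and are given in the order replicate 1, 2 and 3. A gene was called at a Benjamini-Hochberg adjusted p under 0.05 in edgeR's quasi-likelihood test over all genes tested, and log2 fold changes are given with their SE. The libraries expressed the defining macrophage markers in either genotype. Adgre1 (F4/80) had 1660, 1741 and 1646 CPM in WT and 1436, 1425 and 1284 CPM in cKO, and Spi1, which encodes PU.1, had 303, 283 and 303 CPM in WT and 293, 296 and 279 CPM in cKO. Neither was called (adjusted p 0.267 and 0.851). No pair of libraries was so alike as to be a duplicate.

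H3f3a mRNA was low in each cKO library. The gene lies on chromosome 1 (180800832 to 180813943, GRCm38) and had 51.2, 38.5 and 44.6 CPM in WT against 8.76, 9.96 and 7.55 CPM in cKO, a log2 fold change of -2.35 ± 0.142 (adjusted p = 1.71e-11). The groups lay far apart. H3f3b, on chromosome 11 (116021912 to 116027962), encodes the same protein and had the higher CPM, a value that is not scaled for gene length. It had 261, 243 and 258 CPM in WT and 204, 210 and 195 CPM in cKO. All cKO libraries lay below all WT libraries, but the log2 fold change of -0.32 ± 0.164 did not pass the test (adjusted p = 0.184). With edgeR fitted on the libraries of set 2 alone, H3f3b was called lower (adjusted p = 0.000623). The floxed part of H3f3a is a single exon, and counts on the whole gene can include transcripts without it. In H3f3b the floxed part spans all exons, so that its counts do not bear out a full deletion, and most H3f3b mRNA was still present in the libraries labelled cKO. The study reports depletion of H3.3 mRNA by qRT-PCR and of H3.3 protein by western blot in cKO BMDMs, without naming this set. The directions given here are those of libraries that carry the cKO label and had low H3f3a and Lyz2. Lyz2, the lysozyme gene that carries cre, had 5361, 4465 and 5009 CPM in WT and 7.4, 6.8 and 6.55 CPM in cKO (-9.48 ± 0.335, adjusted p = 1.3e-15). Of the 55 genes tested within 5 Mb of Lyz2, 9 were called (16.4%).

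Of 18083 genes tested, 3803 were called (21%), 1761 higher in cKO (9.74%) and 2042 lower (11.3%). At least 2-fold differences were seen for 810 higher and 368 lower genes, and the median log2 fold change over all genes was -0.01. WT and cKO libraries did not overlap for 44.5% of all genes tested, and for 3747 of the 3803 called genes. Without any 1 of the 6 libraries, 2791 to 3303 genes were called.

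Genes were ranked among abundant called genes whose groups did not overlap, so that separation of the groups was fixed by the choice. The 12 genes with the highest fold change included surface receptors, class I genes and interferon-induced genes. Ly6a, which encodes the surface protein Sca-1 and is induced by interferon, had 16.8, 18 and 15.8 CPM in WT and 371, 430 and 345 CPM in cKO (4.50 ± 0.373, adjusted p = 3.68e-09). Its lowest cKO library was far above its highest WT library. Ly6c2, a marker of inflammatory monocytes, had 1.97, 4.67 and 3.71 CPM in WT and 57.1, 45.2 and 66 CPM in cKO (4.02 ± 0.373). The class I genes H2-Q6 and H2-Q7 rose by 4.34 and 3.66 on the log2 scale. They are near copies of each other, so that reads may be split between them. Treml2, a receptor of the TREM family, Itgb7, an integrin subunit, and Cd300lf, an inhibitory receptor, rose by 4.02, 2.99 and 2.76. For Itgb7 the values were 23, 19.8 and 24.4 CPM in WT and 166, 189 and 180 CPM in cKO, among the tightest groups of the ranked genes. Also among the 12 were Gm1966, a pseudogene (4.39), Ms4a4c (3.84), the Schlafen gene Slfn4 (3.42) and Ifi44 (2.85).

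**Figure D1:**
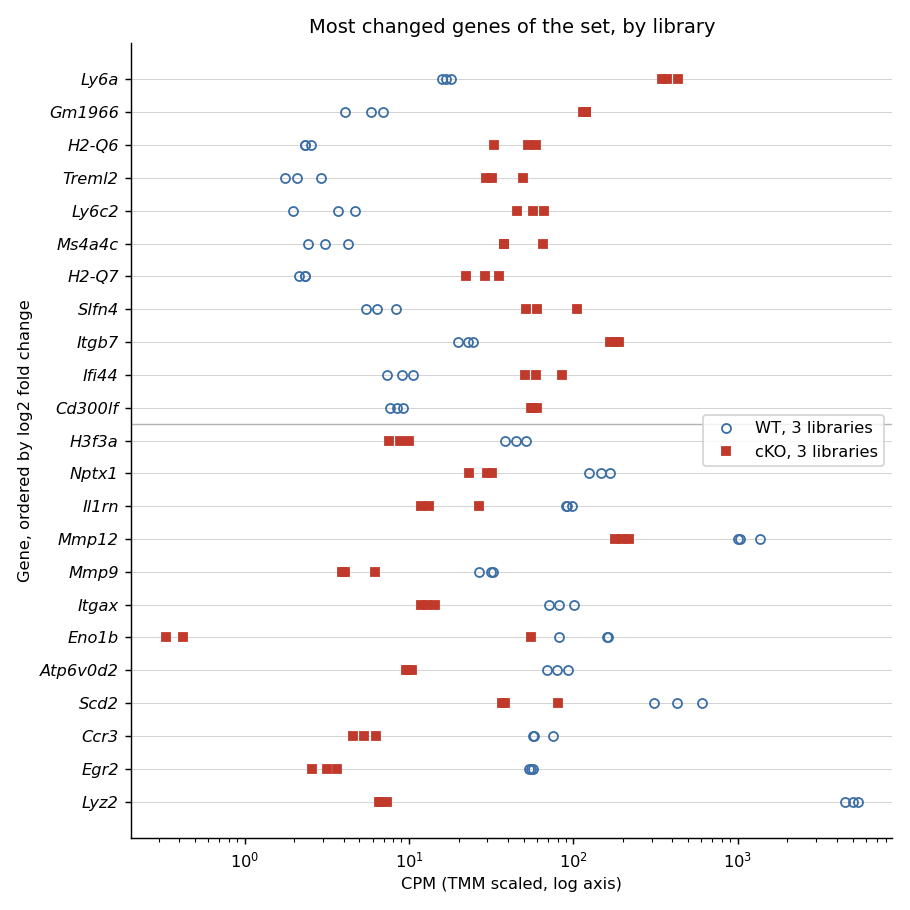
CPM (log axis) of 11 of the 12 genes with the highest and the 12 with the lowest log2 fold change among called genes whose groups did not overlap and whose log2 CPM averaged 3 or more, for 3 WT libraries (open circles) and 3 cKO libraries (filled squares). Ly6a moved from 15.8 to 18 CPM in WT to 345 to 430 CPM in cKO, while Eno1b had a cKO library at 55.2 CPM and 2 others below 0.5 CPM.

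The 12 genes with the lowest fold change included a transcription factor, proteases and a lipid enzyme. Egr2, a zinc finger factor of alternatively activated macrophages, had 55.2, 56.8 and 53.4 CPM in WT and 2.56, 3.63 and 3.18 CPM in cKO (-4.14 ± 0.696, adjusted p = 8.91e-05). Ccr3, an eotaxin receptor, fell by 3.55 on the log2 scale, and Atp6v0d2, a macrophage and osteoclast subunit of the vacuolar proton pump, fell by 3.01. Mmp12, the macrophage elastase, had 1026, 1368 and 1001 CPM in WT and 179, 217 and 196 CPM in cKO (-2.52 ± 0.442), and Mmp9, a gelatinase, fell by 2.67. Itgax, which encodes CD11c, had 81.2, 101 and 70.8 CPM in WT and 12.9, 11.8 and 14.3 CPM in cKO (-2.70 ± 0.252). Il1rn, the antagonist of the interleukin-1 receptor, had 90, 98 and 91.2 CPM in WT and 11.8, 26.5 and 13.2 CPM in cKO (-2.44 ± 0.451). In each of these genes every cKO library lay below every WT library, which the ranking required. Eno1b was close to the threshold (adjusted p = 0.0497), with 161, 81.8 and 163 CPM in WT and 0.333, 0.423 and 55.2 CPM in cKO. It is a near copy of the enolase gene Eno1, so that its counts are uncertain. Its call was lost without any 1 of the libraries other than cKO replicate 3 (adjusted p up to 0.144), and without cKO replicate 3 its log2 fold change was -8.47. DESeq2 and RLE scaling did not call it either. Nptx1, a pentraxin, completed the ranked list at -2.36, with Scd2, H3f3a and Lyz2.

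Interferon-stimulated genes were raised, while few interferon transcripts were measured. Of 12 interferon ligand genes on the list, 1 was deep enough to be tested and 0 were called by edgeR or by DESeq2, and 1 had an unadjusted p under 0.05. That gene, Ifnk, encodes interferon-κ, and the listed genes together had 0.199 to 0.632 CPM in WT and 0.131 to 0.222 CPM in cKO. Of the 69 canonical interferon genes tested, 59 were called higher and 3 lower, with a median log2 fold change of 1.0 beside -0.01 over all genes. Usp18, which restrains IFNAR signalling, had 15.8, 17.9 and 15.9 CPM in WT and 56.8, 61 and 52.6 CPM in cKO (1.78 ± 0.148, adjusted p = 3.93e-09). Oasl1, of the oligoadenylate synthetase family, had 13.2, 19.6 and 16.3 CPM in WT and 88.2, 109 and 88.4 CPM in cKO (2.54 ± 0.21). Ifi44 had 7.4, 10.6 and 9.02 CPM in WT and 59.2, 85 and 51 CPM in cKO (2.85 ± 0.369, adjusted p = 3.19e-06). The groups were apart in all of these genes, and replicate 2 was the highest cKO library in each.

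Other members had smaller fold changes. Ly6e, a cell surface gene that blocks virus fusion, had 449, 464 and 440 CPM in WT and 941, 1203 and 825 CPM in cKO (1.13 ± 0.172). Isg15, a ubiquitin-like modifier, had 17, 19.9 and 16.9 CPM in WT and 30.1, 49.1 and 28.2 CPM in cKO (1.0 ± 0.206, adjusted p = 0.00088). Oas1a, another synthetase that activates RNase L, rose by 0.62 ± 0.14 (adjusted p = 0.00213). The 3 members that fell were Ifitm3, Ifitm2 and Ifitm6, of a family of membrane proteins that hinder virus entry. Ifitm3 had 759, 629 and 653 CPM in WT and 372, 564 and 326 CPM in cKO (-0.69 ± 0.147, adjusted p = 0.00108), while Ifitm1 of the same family had 0.43, 0.973 and 1.16 CPM in WT and 13, 9.41 and 12.4 CPM in cKO and rose. Ifitm3 was the more abundant transcript per kilobase of exon, at 1004 CPM per kb in WT against 0.781 for Ifitm1. The call of Ifitm6 (adjusted p = 0.0235) was lost in fits without WT replicate 1 or 3 or cKO replicate 1 or 3, and 5 members of the list were called lower without cKO replicate 2. Apol9a, an apolipoprotein L gene, had the smallest adjusted p of the list, with 0, 0.0486 and 0.0332 CPM in WT and 4.38, 3.39 and 4.02 CPM in cKO. Its WT values rest on too few counts to give a fold.

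The region before the start of these genes can hold the element bound by STAT2 with IRF9 or by IRFs alone. Its core was searched as GAAANNGAAA, in either strand, in the 250 bases before the start site in the RefSeq promoter table (GRCm38.p6). The genes below are shown because they are called members of the list that differ in level and hold the core in different forms. The sequences read 5′ to 3′ in the direction of the gene, and capitals mark the matches. They are Apol9a (chr15:77411081-77411330, minus strand), Isg15 (chr4:156200819-156201068, minus strand) and Parp11 (chr6:127446590-127446839, plus strand), which encodes a mono-ADP-ribosyltransferase.
Apol9a: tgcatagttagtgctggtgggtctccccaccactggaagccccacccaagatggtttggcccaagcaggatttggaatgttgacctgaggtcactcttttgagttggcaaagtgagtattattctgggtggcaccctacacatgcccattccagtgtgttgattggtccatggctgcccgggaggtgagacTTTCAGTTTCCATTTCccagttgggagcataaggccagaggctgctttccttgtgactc
Isg15: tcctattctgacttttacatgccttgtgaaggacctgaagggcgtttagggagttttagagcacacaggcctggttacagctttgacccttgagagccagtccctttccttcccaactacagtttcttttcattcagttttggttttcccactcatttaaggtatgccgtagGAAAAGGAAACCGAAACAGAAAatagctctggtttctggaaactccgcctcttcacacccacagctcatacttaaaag
Parp11: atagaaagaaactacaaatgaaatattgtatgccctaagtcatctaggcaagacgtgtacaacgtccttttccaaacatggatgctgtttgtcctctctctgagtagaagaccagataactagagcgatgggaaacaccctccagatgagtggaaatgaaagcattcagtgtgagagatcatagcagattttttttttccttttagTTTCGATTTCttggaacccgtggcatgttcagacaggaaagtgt
The core matches overlap one another in Apol9a (2 matches) and in Isg15 (3 matches), while Parp11 holds 1. Parp11 had 24.9, 28.4 and 29.1 CPM in WT and 58.6, 66.5 and 56.5 CPM in cKO (1.14 ± 0.0888, adjusted p = 1.48e-09), again with no overlap. The core was found in 2.98% of 32851 promoters of the table and in 3.39% of the 11225 tested genes with a promoter. It was found in 100 of 1259 genes called higher (7.94%) and 31 of 1539 called lower (2.01%). On the canonical list 22 of 53 genes with a promoter held it (41.5%), and among the GBP and IRG genes 9 of 10. A match is a stretch of letters and does not show that a factor was bound.

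The interferon-inducible GTPases rose in 19 of 19 tested genes, with a median log2 fold change of 2.09. These GBP and IRG proteins attack the vacuoles of intracellular pathogens. Gbp9 had 16.1, 17.2 and 15.8 CPM in WT and 50.2, 55.5 and 43.8 CPM in cKO (1.61 ± 0.169), and Irgm1, an IRG regulator, had 79.3, 84.4 and 77.4 CPM in WT and 138, 164 and 123 CPM in cKO (0.82 ± 0.11). Iigp1, an IRG effector, rose by 3.60 from 1.57, 1.97 and 2.22 CPM. Gbp4 and Gbp6 had at most 0.316 CPM in a WT library and at least 3.73 CPM in a cKO library. Gbp4 overlaps Gbp9 on chromosome 5 (105115767 to 105139586 against 105077630 to 105139539), and the counts of both are uncertain. The lowest fold on the list was that of Gvin1. Its call was lost without WT replicate 1 or 3 or cKO replicate 2 and on the counts of 1 strand column (adjusted p up to 0.141). These 1-strand counts were taken from the larger strand column of each library, 50.1% of both columns in set 2. The library kit does not mark strand, so they hold fewer reads and no strand information.

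Of 33 genes for sensing nucleic acids, 22 rose and 1 fell. Tlr9, the endosomal receptor for unmethylated DNA, had 23.5, 24.2 and 20.3 CPM in WT and 68.5, 89.2 and 68.6 CPM in cKO (1.73 ± 0.277, adjusted p = 5.01e-05). Ddx58, which encodes the RNA sensor RIG-I, had 79.2, 83.3 and 76.9 CPM in WT and 160, 198 and 154 CPM in cKO (1.09 ± 0.132). Tmem173, which encodes STING, had 42.7, 44.4 and 42.9 CPM in WT and 76.4, 74.4 and 77.2 CPM in cKO (0.81 ± 0.104, adjusted p = 2.96e-06). Cgas, the DNA sensor upstream of STING, rose by 0.44 ± 0.118. Of the DNA-binding Ifi200 genes, Ifi204 rose by 1.29 ± 0.193 and Ifi206 by 2.46 ± 0.291. Mavs, the adaptor of RIG-I, had 50.2, 48.7 and 49.6 CPM in WT and 50.1, 51 and 48.5 CPM in cKO and was not called (0.01 ± 0.0693, adjusted p = 0.947). The RNA receptor Tlr7 was the member that fell (-0.31, adjusted p = 0.038). Its call was lost without WT replicate 1, 2 or 3 or cKO replicate 1 or 3 and on the 1-strand counts.

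Interferon receptors and signal transducers moved in either direction. Of 18 genes tested, 7 rose and 1 fell, with a median log2 fold change of 0.05. The share called was 44.4% beside 21% of all genes tested. Ifnar1, a chain of the type I receptor, had 246, 245 and 244 CPM in WT and 191, 179 and 180 CPM in cKO (-0.42 ± 0.0577, adjusted p = 7.26e-06), and its partner Ifnar2 rose by 0.29 ± 0.0923 (adjusted p = 0.024, lost without WT replicate 2 or 3 or cKO replicate 1 or 3). Stat2 had 116, 121 and 113 CPM in WT and 210, 255 and 203 CPM in cKO (0.94 ± 0.125). Jak2 rose by 0.50 and Irf9 by 0.32. Among 9 IRF genes, Irf7, the factor that amplifies type I interferon, had 127, 155 and 115 CPM in WT and 318, 467 and 298 CPM in cKO (1.45 ± 0.262, adjusted p = 0.00021). Irf8, a factor of macrophage and dendritic cell development, was not called (0.09 ± 0.152, adjusted p = 0.754), and Irf4 and Irf9 were the other IRF genes called higher. The call of Irf4 was lost without WT replicate 1 (adjusted p = 0.0547).

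Antigen presentation genes rose in part in either class. Of 23 class I genes 15 rose and 1 fell, and of 12 class II genes 5 rose and 0 fell. H2-K1, a classical class I heavy chain, had 710, 641 and 650 CPM in WT and 1548, 1475 and 1530 CPM in cKO (1.19 ± 0.143, adjusted p = 1.14e-06). Tap1, the peptide transporter, had 78.5, 79 and 77.3 CPM in WT and 204, 223 and 204 CPM in cKO (1.43 ± 0.111), and B2m, the light chain, rose by 0.47 ± 0.129. Tapbp, which loads peptide, was the member that fell (adjusted p = 0.0153, lost without cKO replicate 1 or 3). Cd74, the class II invariant chain, had 98.1, 139 and 128 CPM in WT and 110, 119 and 96.5 CPM in cKO, overlapping groups with an adjusted p of 0.82. H2-DMa, which loads class II molecules, rose by 0.92 ± 0.231, and by 0.58 on the 1-strand counts. With the fit limited to genes of the same identifier version in all files, 18 class I and 2 class II genes were left to test, and 11 and 0 of them were called higher, the same number as among those genes in the full fit.

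A wider list was made from day 8 WT macrophages of the study, as genes raised at least 2-fold by 12 h of interferon-γ, and no library of it is in set 2. Of its 1349 genes tested in set 2, 435 were called higher in cKO and 116 lower. The list held 33.8% of the 1288 called-higher genes tested in both experiments, 6.2% of the 1871 called-lower genes and 11.2% of all 12029 genes tested in both. For the 528 genes raised more than 4-fold, 255 were called higher and 23 lower, with a median log2 fold change of 0.64.

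Secreted signals changed in either direction. Of 19 chemokines, 2 rose and 4 fell, 31.6% called beside 21% of all genes tested. The share that rose was near the 9.74% of all genes. Over the alternatives 2 to 4 were called higher and 3 to 8 lower. Pf4, a platelet and macrophage chemokine, had 306, 353 and 337 CPM in WT and 125, 122 and 130 CPM in cKO (-1.40 ± 0.135, adjusted p = 4.4e-08). Ccl6 and Ccl9, which attract myeloid cells, fell by 0.73 and 0.49, and Ccl2, the ligand of CCR2, was not called (-0.33 ± 0.231, adjusted p = 0.356). Cxcl10, an interferon-induced chemokine, had 2.7, 2.65 and 4.18 CPM in WT and 6.78, 11.7 and 5.15 CPM in cKO and was not called either (adjusted p = 0.0677). Of 18 inflammatory cytokines 7 rose and 2 fell. Csf1, which encodes M-CSF, had 5.91, 6.54 and 5.47 CPM in WT and 17, 17.9 and 13 CPM in cKO (1.42 ± 0.233), and Il15, which sustains lymphocytes, had 13, 11.8 and 12.3 CPM in WT and 20.4, 22.3 and 22.1 CPM in cKO (0.80 ± 0.106). Tnf had 70.9 to 83.3 CPM in WT and 75.5 to 80.7 CPM in cKO and was not called (adjusted p = 0.985), and Il1rn fell as described. The list had 1 called lower without WT replicate 1 or cKO replicate 3.

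**Figure D2:**
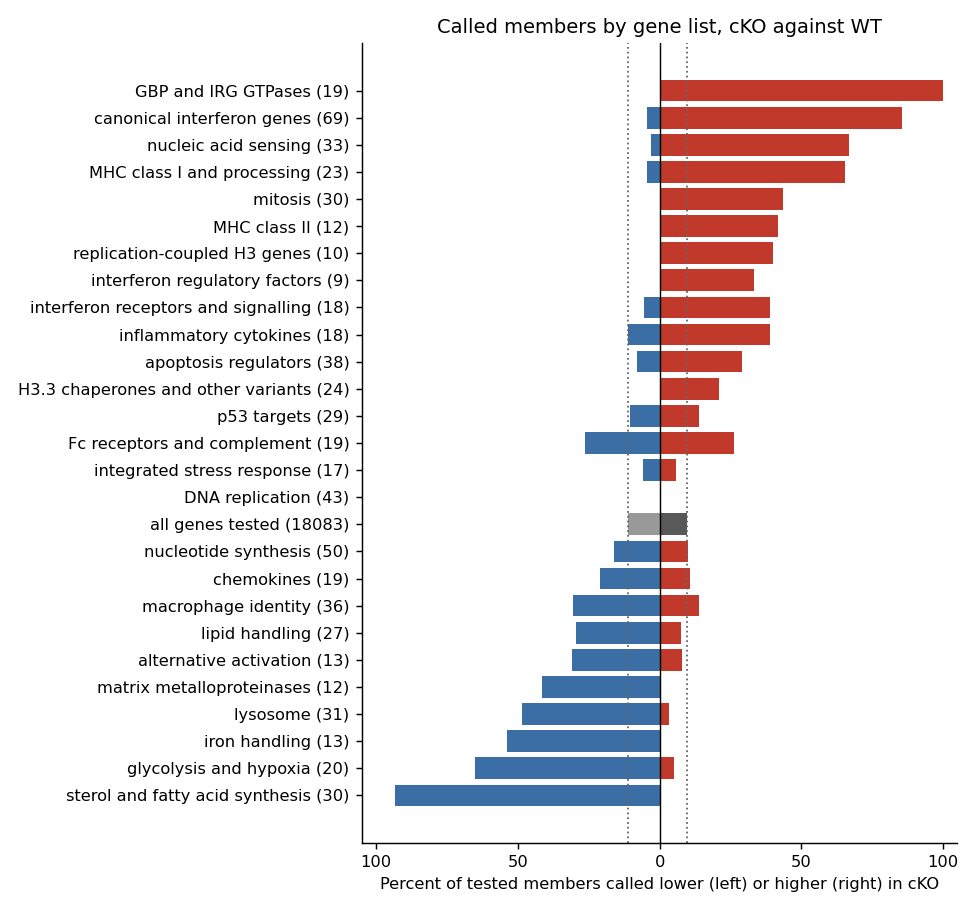
Share of tested members called higher (right, red) or lower (left, blue) in cKO for each gene list, with the number tested in brackets and all 18083 genes in grey and as dotted lines at 9.74% and 11.3%. GBP and IRG genes stand at one end with 19 of 19 higher, and sterol and fatty acid synthesis at the other with 28 of 30 lower.

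Sterol and fatty acid synthesis was the list with the highest share of reduced genes. Of 30 genes tested 28 fell and 0 rose, with a median log2 fold change of -1.24, and the fold change was negative in 30 of 30. These genes are targets of the SREBP factors, which respond to low sterol. Insig1, which retains SREBP in the endoplasmic reticulum and is itself a target, had 182, 124 and 137 CPM in WT and 36, 61.5 and 33.1 CPM in cKO (-1.77 ± 0.202). Scd2, a fatty acid desaturase, had 608, 310 and 424 CPM in WT and 36.7, 80.6 and 38.4 CPM in cKO (-3.11 ± 0.405). In each of the genes named, WT replicate 1 was the highest library and cKO replicate 2 the highest of the cKO, and the groups did not overlap.

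The pathway fell from its first steps to its regulators. Hmgcs1, the synthase at the start of the mevalonate pathway, had 78.8, 57.6 and 64.3 CPM in WT and 20.3, 27 and 18 CPM in cKO (-1.62 ± 0.149, adjusted p = 2.03e-08). Sqle, the epoxidase of squalene, fell by 1.62 ± 0.216 and Cyp51, a demethylase of lanosterol, by 1.81 ± 0.218. Fasn, the fatty acid synthase, had 469, 365 and 411 CPM in WT and 177, 204 and 173 CPM in cKO (-1.17 ± 0.188). Srebf2, which encodes the sterol-directed SREBP, had 388, 320 and 336 CPM in WT and 161, 222 and 155 CPM in cKO (-0.96 ± 0.144), and Srebf1 fell by 0.64 ± 0.138. The 2 genes that did not pass were Mvk and Elovl6. A sterol element, TCACNCCAC in either strand, was found in the 250 bases before Hmgcs1 (chr13:119690101-119690350, plus strand, capitals). It is shown as the only list member with this form of the element.
Hmgcs1: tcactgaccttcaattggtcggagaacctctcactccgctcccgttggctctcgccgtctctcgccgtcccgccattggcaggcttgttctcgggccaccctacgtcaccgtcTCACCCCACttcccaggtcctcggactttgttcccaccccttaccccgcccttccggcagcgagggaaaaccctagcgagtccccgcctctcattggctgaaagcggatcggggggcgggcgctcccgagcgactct
The element was found in 1 of the 21 genes of the list with a promoter (4.76%), 1.3% of all genes tested and 1.05% of all promoters. The interferon core was found in 0 of the 21.

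**Figure D3:**
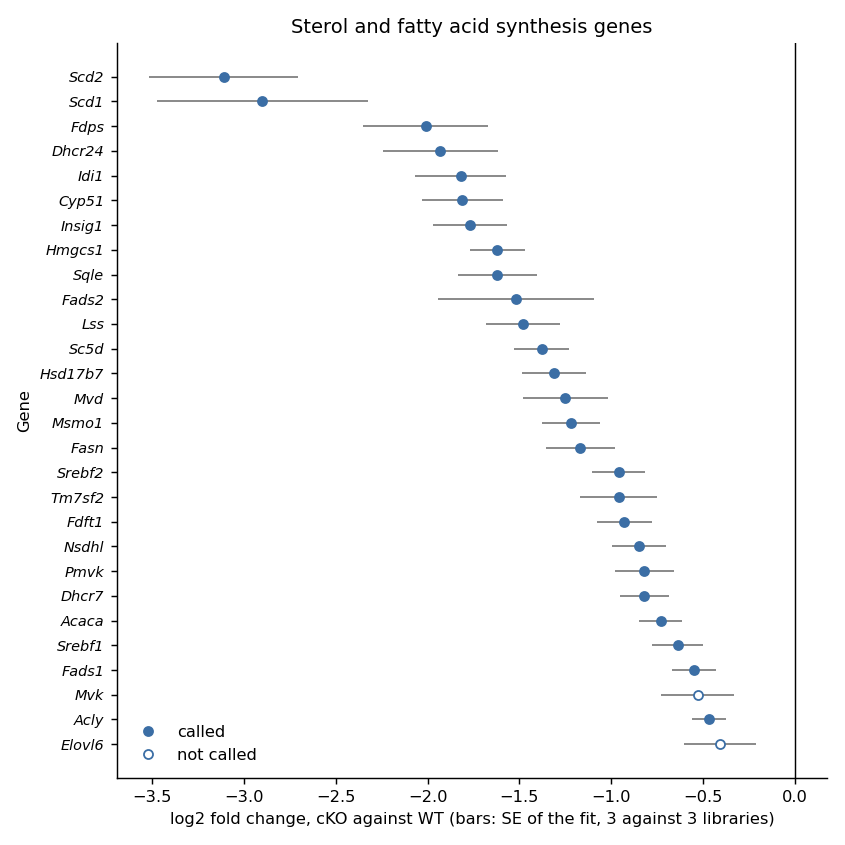
log2 fold change (points) with SE (bars) of 28 of the 30 sterol and fatty acid synthesis genes, cKO against WT, 3 libraries each, with filled points for called genes. All points lie below 0, from Scd2 at -3.11 to Elovl6 at -0.41.

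Genes of lipid uptake were mixed. Of 27 lipid handling genes 8 fell and 2 rose (1 without WT replicate 1). Fabp5, a fatty acid binding protein, had 166, 117 and 116 CPM in WT and 29.9, 35 and 30.1 CPM in cKO (-2.07 ± 0.203, adjusted p = 5.54e-08), and Fabp4 fell by 1.96 ± 0.237. Cd36, the scavenger receptor, had 2328, 2684 and 2530 CPM in WT and 1577, 1485 and 1565 CPM in cKO (-0.70 ± 0.153). Lpin1, a phosphatidate phosphatase, fell by 0.85 ± 0.119 and Sptssa, a small subunit of serine palmitoyltransferase, by 0.56 ± 0.134. The cholesterol exporters Abca1 and Abcg1 were not called (adjusted p 0.508 and 0.937), nor was Plin2, which coats lipid droplets (0.541).

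Genes of iron and sugar metabolism fell. Of 13 iron genes 7 fell and 0 rose (median -0.69), and of 20 glycolysis and hypoxia genes 13 fell and 1 rose (median -0.44). Tfrc, the transferrin receptor, had 356, 391 and 374 CPM in WT and 174, 168 and 169 CPM in cKO (-1.13 ± 0.183, adjusted p = 5.58e-05). Hmox1, the haem oxygenase, had 799, 910 and 925 CPM in WT and 528, 314 and 515 CPM in cKO (-0.96 ± 0.16), and Fth1, the ferritin heavy chain, had 5879, 5048 and 5110 CPM in WT and 3447, 3399 and 3070 CPM in cKO (-0.69 ± 0.0984). Slc40a1, the iron exporter, was not called (0.09 ± 0.151). Slc2a1, the glucose transporter GLUT1, had 172, 188 and 195 CPM in WT and 94, 90.4 and 91.3 CPM in cKO (-1.01 ± 0.123, adjusted p = 1.4e-06), and Pgk1, a glycolytic kinase, fell by 0.62 ± 0.119. Without cKO replicate 3 the glycolysis and hypoxia list had 8 called lower, and without WT replicate 1 or 2 or cKO replicate 1 or 2 it had 0 called higher.

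Macrophage identity genes fell more often than they rose, 11 against 5 of 36. Mrc1, the mannose receptor, had 938, 912 and 906 CPM in WT and 307, 470 and 267 CPM in cKO (-1.40 ± 0.135, adjusted p = 3.99e-08). Gpnmb, a glycoprotein of lipid-laden macrophages, had 6753, 6477 and 5979 CPM in WT and 2352, 2551 and 2557 CPM in cKO (-1.36 ± 0.188), and Apoe, the lipoprotein, fell by 1.76 ± 0.349. Cd68, a lysosomal glycoprotein, fell by 0.63 ± 0.0982 and Itgam, which encodes CD11b, by 0.49 ± 0.117. In the other direction, Axl, a receptor for apoptotic cells, had 92.1, 131 and 103 CPM in WT and 420, 487 and 421 CPM in cKO (2.03 ± 0.23, adjusted p = 5.29e-07), Fcgr4, an IgG receptor, rose by 1.63 ± 0.254, and Cx3cr1, a chemokine receptor of monocytes, by 1.45 ± 0.249. Csf1r, the M-CSF receptor, had 1808, 1935 and 2032 CPM in WT and 2124, 1759 and 2027 CPM in cKO, overlapping groups that did not pass the test (adjusted p = 0.942).

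Of 31 lysosomal genes 15 fell and 1 rose. Ctsb, a cathepsin and one of the most abundant transcripts, had 12393, 11772 and 12054 CPM in WT and 8973, 9753 and 8395 CPM in cKO (-0.42 ± 0.108, adjusted p = 0.00647). Cd63, a tetraspanin of late endosomes, fell by 0.97 ± 0.147, and Ctsk, a collagen-degrading cathepsin, had 4.68, 4.77 and 3.98 CPM in WT and 0.8, 1.32 and 0.894 CPM in cKO. The member that rose was cathepsin H (Ctsh), with 83.1, 88.6 and 74.5 CPM in WT and 203, 193 and 185 CPM in cKO (1.24 ± 0.179). Among 12 matrix metalloproteinases and their inhibitors 5 fell and 0 rose, among them Timp2, an inhibitor (-0.67 ± 0.142). Of 13 genes of alternative activation 4 fell and 1 rose. The riser was Tgm2, a transglutaminase, with 27.8, 32 and 34.4 CPM in WT and 111, 73 and 111 CPM in cKO (1.65 ± 0.179), and Arg1, arginase, was not called (adjusted p = 0.326). Of 19 Fc receptor and complement genes 5 rose and 5 fell, among them C4b, a complement component (3.39 ± 0.366), and C5ar1, the receptor of C5a, with 1363, 1301 and 1349 CPM in WT and 921, 913 and 881 CPM in cKO (-0.56 ± 0.0912). Without WT replicate 1 or cKO replicate 2, 3 of the Fc receptor and complement genes were called higher.

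Of the cell cycle lists, mitosis genes were raised and no replication gene was called in the fit over 27 libraries. Of 30 mitosis genes 13 rose and 0 fell, with a median log2 fold change of 0.56 and a positive fold change in 30 of 30. Cdc20, an activator of the anaphase-promoting complex, had 18.1, 15.5 and 18.3 CPM in WT and 33.5, 46.2 and 33.2 CPM in cKO (1.12 ± 0.232, adjusted p = 0.000888). Plk1, a mitotic kinase, had 22.3, 18.1 and 20.1 CPM in WT and 38.3, 49.8 and 35.5 CPM in cKO (1.03 ± 0.22), and Ccnb2, a mitotic cyclin, rose by 0.92 ± 0.206. Mki67 had 436, 357 and 401 CPM in WT and 503, 632 and 482 CPM in cKO, with no overlap but an adjusted p of 0.126. cKO replicate 2 was the highest cKO library in 30 of the 30 genes, and without it 7 were called. Of 43 DNA replication genes edgeR and DESeq2 called 0 with the 27 libraries, and 1 had an unadjusted p under 0.05. Pcna, the sliding clamp of DNA polymerases, had 654, 603 and 619 CPM in WT and 421, 492 and 416 CPM in cKO (-0.50 ± 0.191, adjusted p = 0.0671). Mcm6, a helicase subunit, had 396, 361 and 384 CPM in WT and 337, 352 and 313 CPM in cKO (adjusted p = 0.541). Fitted on set 2 alone, edgeR called 5 replication genes higher and 5 lower.

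Genes of replication-coupled H3 were near the threshold. Of 10 tested, 4 were called higher, Hist1h3a, Hist1h3d, Hist1h3g and Hist1h3h, with adjusted p from 0.0393 to 0.0491, and the median log2 fold change was 0.70. Hist1h3c, an abundant member per kilobase, had 89.2, 63.4 and 77.4 CPM in WT and 123, 162 and 110 CPM in cKO and was not called (0.78 ± 0.293, adjusted p = 0.0602). With any 1 library left out, 0 or 1 of the 10 were called. These transcripts mostly lack a poly(A) tail, which the ribosomal RNA depletion used here does not require. Among 24 H3.3 chaperones and other variants 5 rose and 0 fell, and the 20.8% called was near the 21% of all genes tested. Daxx, a chaperone of H3.3, had 52.3, 53.4 and 52.5 CPM in WT and 72.1, 82.7 and 71.5 CPM in cKO (0.52 ± 0.104, adjusted p = 0.000625), and Cenpa, the histone H3 variant of centromeres, rose by 0.81 ± 0.194. Atrx, the partner of DAXX, and Hira, the chaperone at active genes, were not called (adjusted p 0.982 and 0.714). Without WT replicate 2 the list had 2 called and without cKO replicate 2 it had 3.

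Of 50 nucleotide synthesis genes 5 were higher and 8 lower, 26% beside 21% of all genes tested. Impdh1, an enzyme of guanine nucleotide synthesis, had 87.5, 80.8 and 86.3 CPM in WT and 47.1, 51.6 and 48 CPM in cKO (-0.80 ± 0.114, adjusted p = 1.3e-05). Gmpr, a GMP reductase, fell by 0.76 ± 0.161, a call that was lost on the 1-strand counts (-0.29, adjusted p = 0.116). Tk1, a thymidine kinase, had overlapping groups and was not called (0.20 ± 0.219). With 1 library left out, 2 to 4 genes were called higher and 4 to 6 lower. Of 38 apoptosis regulators 11 rose and 3 fell, 36.8% beside 21% of all genes tested. Bid, which links death receptors to mitochondria, had 46.6, 46.9 and 48.5 CPM in WT and 76.7, 86.5 and 72.8 CPM in cKO (0.73 ± 0.128), Casp1, the inflammasome caspase, rose by 0.49 ± 0.0925, and Bcl2l1, which encodes the survival factor BCL-xL, fell by 0.49 ± 0.13. Bcl2l11, which encodes BIM, rose by 0.41 ± 0.14 (adjusted p = 0.0393, lost without any 1 of the 6 libraries). Of 29 p53 targets 4 rose and 3 fell, 24.1% beside 21% of all genes tested. The best known of them, Cdkn1a, which encodes p21, had 241, 248 and 246 CPM in WT and 284, 259 and 265 CPM in cKO and was not called (0.14 ± 0.119, adjusted p = 0.48). Of 17 genes of the integrated stress response 1 rose and 1 fell, 11.8% of the list beside 21% of all genes tested. The lower one was Atf4, the factor at the centre of that response (-0.34 ± 0.0968, adjusted p = 0.0129, lost without cKO replicate 1 or 3). Without WT replicate 1 or 2 or cKO replicate 1 or 3, 1 of the p53 targets was called lower. These counts depend on the fit. With edgeR fitted on set 2 alone, where 5593 genes were called, 3 integrated stress response genes rose and 8 fell. Of the p53 targets 8 rose and 6 fell there.

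Markers of other cells the culture could hold were read alongside. In bulk RNA, more cells of a type and more RNA per cell cannot be told apart. Of 5 monocyte markers 4 rose, and their summed level was 92.3 to 115 CPM in WT and 368 to 411 CPM in cKO. Ccr2, the receptor that releases monocytes from marrow, had 49.6, 63.1 and 55.9 CPM in WT and 207, 268 and 206 CPM in cKO (2.01 ± 0.391, adjusted p = 0.000453), and Plac8, expressed in classical monocytes, had 1.09, 2.19 and 1.23 CPM in WT and 28.7, 34.2 and 27.2 CPM in cKO. Of 11 neutrophil markers the 3 granule genes Mpo, Elane and Prtn3 rose, while the summed level of the list was 141 to 223 CPM in WT and 201 to 224 CPM in cKO. Mpo had 2.75, 8.75 and 6.73 CPM in WT and 21.9, 26.2 and 18.6 CPM in cKO. Dendritic cell markers rose in 5 of 8 at low levels, 2.72 to 4.35 CPM in all in WT and 6.91 to 7.89 CPM in cKO (2 to 4 of 8 with 1 library left out). Of the mast cell and basophil markers 3 of 4 rose (1.31 to 2.59 against 4.65 to 6 CPM), but 0 were called higher on the 1-strand counts. Of the B cell markers 1 of 6 rose (4.14 to 6.13 against 12.7 to 14.7 CPM). Stromal markers had 39.3 to 114 CPM in WT and 45.7 to 93.3 CPM in cKO, with 2 of 9 lower (1 of 9 without WT replicate 1 or 2 or cKO replicate 2 or 3) and 0 higher (1 without WT replicate 2 or cKO replicate 2). The share called was 27.3% of the neutrophil, 16.7% of the B cell and 22.2% of the stromal list, near the 21% of all genes tested. No marker of the T and NK, erythroid, eosinophil or megakaryocyte lists was called. The summed macrophage markers were 6215 to 6251 CPM in WT and 5092 to 5488 CPM in cKO, with 3 of 8 lower. The part of these cells in the interferon and mitotic genes was not tested.

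Libraries of a genotype also differed from each other along these lists. WT replicate 1 was the highest WT library in 30 of 30 sterol genes, 28 of 30 mitosis genes and 32 of 43 replication genes, against 36.3% of all genes tested. cKO replicate 2 was the highest cKO library in 63 of 69 canonical interferon genes, 19 of 19 GBP and IRG genes, 27 of 30 sterol genes, 30 of 30 mitosis genes and 41 of 43 replication genes, against 37.4% of all genes tested. Within WT the order was another, as replicate 2 was the highest library in 50 of 69 canonical interferon genes and 16 of 19 GBP and IRG genes but the lowest in 28 of 30 sterol genes, 29 of 30 mitosis genes and 35 of 43 replication genes. Without cKO replicate 2, 55 canonical interferon genes were called higher.

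The study holds 2 other BMDM sets of 3 WT and 3 cKO libraries, called sets 1 and 3 here, with the same genotypes and no library in common with set 2. In them 6275 and 6318 genes were called. Of the 1761 genes called higher in set 2, 909 were also called higher in set 1 (51.6% of set 2, 28% of set 1) and 861 in set 3 (48.9% and 28.1%). Of the 2042 called lower, 804 were shared with set 1 (39.4% and 26.6%) and 874 with set 3 (42.8% and 26.9%). Opposite calls were made for 303 genes in set 1 and 304 in set 3. Sets 1 and 3 are not independent of each other in their profiles. Each of the 6 libraries of set 1 was nearest to the library of the same number in set 3. The fit treats these libraries as independent. Agreement with both sets, or a difference from both, is therefore not given by independent comparisons.

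The differences themselves were tested as interaction terms. The cKO effect in set 2 differed from that in set 1 for 3625 genes (20%) and from that in set 3 for 3535 genes (19.5%), and 2825 genes differed from both, 1170 with a more positive and 1655 with a more negative effect in set 2. Interferon and sterol genes were mostly not among them. Of 69 canonical interferon genes 7 differed from set 1 and 10 from set 3, and of 30 sterol genes 2 and 1. The median log2 fold change of the interferon list was 0.96, 1.0 and 0.81 in sets 1, 2 and 3, and that of the sterol list was -1.04, -1.24 and -1.07. A difference that missed the threshold does not show that effects were equal.

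**Figure D4:**
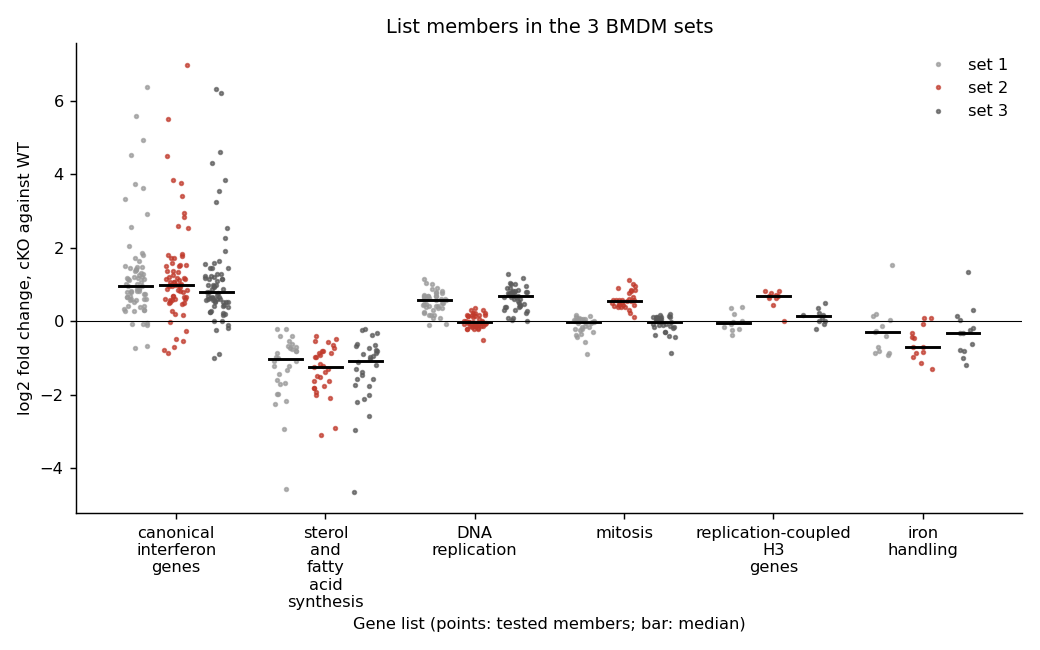
log2 fold change, cKO against WT, of the tested members (points) of 6 gene lists in BMDM sets 1, 2 and 3, with the median of each as a bar. Interferon genes lie mostly above and sterol genes below 0 in all 3 sets, while DNA replication is raised in sets 1 and 3 and mitosis in set 2.

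Cell cycle lists differed between the sets in opposite ways. Of the 43 replication genes, 0 were called in set 2 and 32 were higher in set 3. The effect differed in 10 (set 1) and 17 (set 3) genes, always lower in set 2. Over all genes tested it differed for 20% (set 1) and 19.5% (set 3), so the count for set 1 is near the share of all genes. For Mcm6 the difference was -1.08 ± 0.262 against set 1 (adjusted p = 0.00498) and -1.15 ± 0.262 against set 3. Of the 30 mitosis genes the effect differed in 9 and 10, always higher in set 2. For Ccnb2 it was 1.80 ± 0.288 (adjusted p = 0.000117) and 1.77 ± 0.288, since Ccnb2 fell by 0.88 and 0.85 in sets 1 and 3. Of 13 iron genes 8 differed from set 1 and 6 from set 3. For Tfrc the difference was -1.34 ± 0.258 (adjusted p = 0.000728) and -1.44 ± 0.259.

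The WT libraries of set 2 lay apart from those of the other sets. Tfrc had 374 ± 17.7 CPM (mean ± SD, n = 3) in WT of set 2 but 66.8 to 113 CPM in WT of set 1 and 54.5 to 106 CPM in WT of set 3, whereas cKO libraries had 170 ± 3.53 CPM in set 2 and 90.2 to 114 and 92.4 to 114 CPM in sets 1 and 3. Plau, the urokinase gene, had 2194 ± 285 CPM in WT of set 2 and 287 and 225 CPM on average in WT of sets 1 and 3, with 940 ± 174 CPM in cKO of set 2 beside 909 and 866 CPM. It fell in set 2 (-1.22) and rose in sets 1 and 3 (1.66 and 1.95), and its cKO means in the 3 sets lay near each other. Jag1, a Notch ligand, had 139 ± 12 CPM in WT of set 2 against 18.6 and 13.4 CPM, and 43.4 ± 12 CPM in cKO against 45.7 and 41.7 CPM. P2ry14, a receptor for UDP-glucose, showed the opposite order, with 2.51 ± 0.562 CPM in WT of set 2 against 16.3 and 16.2 CPM, and 14.2 ± 0.317 CPM in cKO against 16.5 and 16.6 CPM. Among the 2825 genes that differed from both sets, the WT groups of sets 2 and 1 were further apart than the cKO groups in 2639 (93.4%), with a median size of 0.79 against 0.17 on the log2 scale, and sets 2 and 3 gave the same share with 0.82 against 0.19. Over all genes tested the share was 68.1%, with medians of 0.39 and 0.21. These genes were selected by the difference, so the numbers describe where it lies and are no test.

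Itgax, Il1rn and Nptx1, ranked among the most reduced genes of set 2, moved the other way elsewhere. Itgax rose in sets 1 and 3 (1.39 and 1.41), from WT means of 11.9 and 10.1 CPM, and the difference was -4.10 ± 0.355 against set 1 (adjusted p = 4.97e-08) and -4.11 ± 0.355 against set 3. Nptx1 had 146 ± 21.2 CPM in WT of set 2 but 5.82 and 3.14 CPM in WT of sets 1 and 3, with differences of -4.13 and -4.83. Il1rn rose in set 3 (1.31, adjusted p = 0.0274) and had an adjusted p of 0.0813 in set 1. Mmp12 had a WT mean of 118 and 86.4 CPM in sets 1 and 3 beside 1132 ± 205 CPM in set 2, and it was not called there. For Ccl2 the order of effects was also turned, with log2 fold changes of 2.21 and 2.32 in sets 1 and 3 and 237 ± 23.4 CPM in WT of set 2 beside 67 and 51.4 CPM. Ccr2, called higher in set 2, was not called in the others (adjusted p 0.937 and 0.887).

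**Figure D5:**
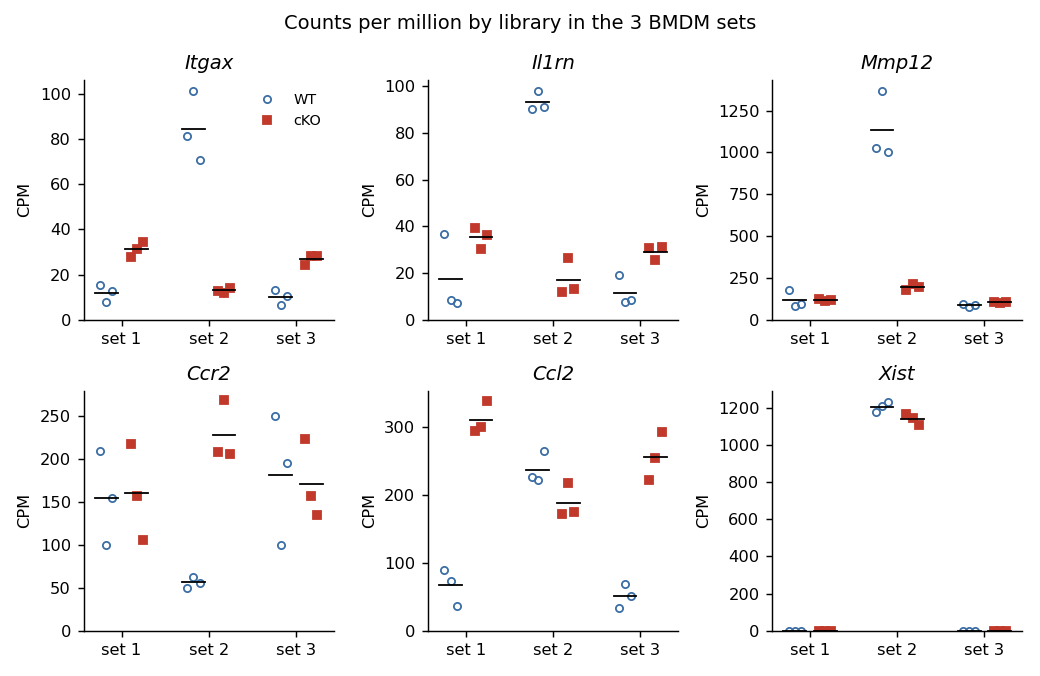
CPM of Itgax, Il1rn, Mmp12, Ccr2, Ccl2 and Xist in each WT (open circles) and cKO (filled squares) library of BMDM sets 1, 2 and 3, with bars at the group means. WT of set 2 stands apart from WT of sets 1 and 3 in the first 5 genes, and Xist is at 1107 to 1229 CPM in set 2 alone.

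A further property separated set 2 from the other sets. Xist, the transcript that silences an X chromosome in female cells, had 1107 to 1229 CPM in all 6 libraries of set 2 and 0 to 0.0871 CPM in the 12 libraries of sets 1 and 3. The Y-linked genes Ddx3y, Kdm5d and Eif2s3y had at most 0.0973 CPM in set 2 and at least 24.9 CPM in sets 1 and 3. The labels give no sex. Within set 2 Xist had 1178 to 1229 CPM in WT and 1107 to 1165 CPM in cKO, a small gap. The Y-linked genes had at most 0.0973 CPM in either genotype, and all 6 libraries were of the same kind. Between sets, the sex of the mice that these levels mark, and all else that differed between the sets, cannot be told apart from the difference in the cKO effect.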

How the data were processed

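Reads were trimmed with Cutadapt and aligned to mm10 with STAR, per the labels and the study's methods. The authors deposited STAR's raw counts per gene for each library, and the unstranded counts were used, since the library kit does not mark strand. Identifiers were joined without their version. Genes were filtered with filterByExpr, scaled by TMM and fitted in edgeR 4.0.16 (R 4.3.3, quasi-likelihood test, two-sided) over 27 BMDM libraries in 9 groups (WT and cKO of the 3 sets, and cKO with Sting, Mavs or Irf7 KO), which share one estimate of the spread. Reads outside genes (12.4 to 16.1% without a feature in set 2) were left out. The test was run on simulated counts at the means of set 2 over 17826 genes, with 200 genes changed. There 7 of 67 genes changed 1.5-fold, 45 of 67 changed 2-fold and 66 of 66 changed 4-fold were recovered, with 5 false calls. The spread was set at the same value for all genes (dispersion 0.04) and not taken from the data. These shares need not hold for the real libraries.

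Genes were named by a rule: the targeted genes, the 12 highest and 12 lowest fold changes among called genes without overlap whose log2 CPM averaged 3 or more, in each list up to 4 called members with the smallest adjusted p and 2 members by level, genes the study names, and up to 5 genes a direction that differed between sets. Other members give ranges. Members and lists were chosen with earlier results of these data known. Alternatives were DESeq2 1.42.0, RLE scaling, other filters, the libraries of the sets alone, the 1-strand counts (the larger strand column of each library), a replicate block, a fold threshold, identifiers of the same version and leaving out each library. Labels do not tie the sets to the double KO groups in the model, and 2 day 8 cKO libraries whose labels conflict were not used. Some genes that the rule names are not reported here.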

Additional observations from a re-analysis of the deposited data

Results flagged for a closer look

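The cKO effect in set 2 differed from that in set 1 for 3625 genes and from that in set 3 for 3535 genes, by the interaction term of the fit (edgeR, adjusted p under 0.05). The abundant genes with the largest differences were picked out for a closer look. Against set 1 the effect was more negative in set 2 for Nptx1 (-4.13), Itgax (-4.10), Il1rn (-3.46), Egr2 (-3.18) and Jag1 (-2.98) on the log2 scale. It was more positive for Gt(ROSA)26Sor (2.69), P2ry14 (2.47), Ypel2 (2.28), Bmf (2.22) and Ighm (2.10). Against set 3 it was more negative for Nptx1 (-4.83), Itgax (-4.11), Il1rn (-3.75), Jag1 (-3.32) and Plau (-3.17), and more positive for Gt(ROSA)26Sor (3.16), P2ry14 (2.46), Bmf (2.41), Peli2 (2.36) and Cmah (2.21). Gt(ROSA)26Sor, the transcript of the Rosa26 locus, had 5.61, 28.5 and 5.9 CPM in WT and 4.16, 31.2 and 4.05 CPM in cKO of set 2, so that replicate 2 stood apart in either genotype.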

How the results depend on the processing

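Counts of called genes stayed within 1.5 times of 3803 under DESeq2 (4035), RLE scaling (3774), no filter (3893), a mean of at least 1 CPM (3600), the 1-strand counts (3659), identifiers of the same version (3606) and the libraries of set 2 alone (5593, though its 3095 lower genes were not within that range of 2042). The genes were not all the same. Of the 3803, 3102 were also called without a filter and 3103 on the 1-strand counts. Without a filter more genes were higher (2063) than lower (1830), the reverse of the main fit with 1761 higher and 2042 lower. At a 2-fold threshold there were 1178 genes, 810 higher and 368 lower, and 1150 and 1156 genes differed from sets 1 and 3. With 1 library left out, 2791 to 3303 genes were called (1380 to 1549 higher, 1369 to 1754 lower), 2855 to 3843 and 2770 to 4083 differed from sets 1 and 3, and 376 to 406 of the interferon-γ list were higher, or 255 with its threshold at a log2 fold change above 2. Fitted on set 2 alone, 26 mitosis genes, 9 H3 genes and 5 replication genes were called higher and 5 replication genes lower.

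Replicate numbers were not shown to pair the samples. Deviations of WT and cKO libraries of the same number correlated at -0.216, -0.162 and 0.264 over 8909 genes, and only replicate 3 correlated best with its own number. With 3 libraries a genotype these values depend on each other and cannot exclude pairing. With a replicate block 4348 genes were called (1940 higher, 2408 lower), and 4257 and 4130 differed from sets 1 and 3. A block on set 2 alone, chosen after seeing the data, gave 4985.

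Genes with changes near 0 turned sign and remained uncalled. Atrx turned to 0.01 under DESeq2, RLE scaling, the CPM filter and either fit on set 2 alone, to 0.02 without a filter and to 0.00 on the 1-strand counts. Tnf turned to 0.01 under the same settings, 0.02 without a filter and 0.03 on the 1-strand counts, and Mavs to -0.01 with identifiers of the same version. With 1 library left out the values ran from -0.03 to 0.03 for Atrx, from -0.07 to 0.05 for Tnf, from -0.01 to 0.03 for Mavs, from -0.02 to 0.11 for Csf1r and from -0.12 to 0.12 for Abcg1. Gt(ROSA)26Sor, not called in set 2, ran from -1.71 without cKO replicate 2, where it was called, to 1.19 without WT replicate 2. Of 122 named genes called in set 2, 108 kept their call under every alternative in which they were tested, the 2-fold threshold apart, and 14 lost it under at least 1. Other named genes gained a call. Adgre1 (adjusted p = 0.00334), Cdkn1a (0.0293) and Mcm6 (0.0298) were called by edgeR fitted on set 2 alone. Without a filter edgeR called Pcna (2.17e-05), Mki67 (3.51e-05), Cxcl10 (2.94e-16) and Hist1h3c (3.99e-14). The absence of a call for these genes depends on the setting. The cause was not tested. In counts simulated with a fixed spread, 1.5-fold changes were mostly missed. That spread is not the one of these libraries, and genes that were not called may still differ.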
